A study of Arabidopsis thaliana with 8 samples.

Results

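The 5 genes described here belong to families linked to loosening or modifying the plant cell wall, and they were followed across 4 Arabidopsis thaliana genotypes. They are the alpha-expansin gene EXPA8, the expansin-like gene EXLA1, the xyloglucan endotransglucosylase/hydrolase genes XTH18 and XTH19, and the trichome birefringence-like gene TBL38. They are 5 genes, each with 1 probe set on the Affymetrix ATH1 array, out of 22810 probe sets, of which 13513 had exactly 1 gene listed in the platform annotation. Their loci are AT2G40610 (EXPA8), AT3G45970 (EXLA1), AT4G30280 (XTH18), AT4G30290 (XTH19) and AT1G29050 (TBL38). The genes were picked with results of these same arrays in view. Their genotype and letter differences are therefore given as a description, and no test on them is used as support.

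The arrays measured total RNA from vegetative shoot apices dissected with their leaf primordia, taken from soil-grown plants at 20 days under 8 h of light and 16 h of dark at 23 °C. The 4 genotypes were wild type (Col-0), 35S:GIF1, rGRF3, and rGRF3x35S:GIF1, here called the combined line, with 2 arrays each, lettered A and B. The 35S:GIF1 line overexpresses the co-activator GIF1 from the 35S promoter, which is active in most tissues, so expression is not limited to the cells that normally use GIF1. The labels call rGRF3 a GRF3 overexpressor and do not name its promoter, and in published work rGRF3 is a GRF3 version that microRNA miR396 cannot target. They do not say how many independent lines or plants stand behind an array, or whether A and B were separate cultures, so a p-value here covers no more than the spread among these arrays, and that spread may be technical. GRF factors and their GIF partners are known for prolonging cell proliferation in young leaves. Growing plant cells enlarge when the wall yields. Expansins loosen the contacts between cellulose and matrix polysaccharides without cutting them, XTH enzymes cut and rejoin xyloglucan chains, and the TBL family adds or removes acetyl groups on wall polysaccharides.

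Facts of the whole set bear on what follows. Log2 signals ran from 2.12, a floor that all arrays share, to 15.55, and between 60.3% and 60.7% of probe sets reached a log2 signal of 4 on each array. Between the letters A and B, a comparison of 4 arrays with 4, 3439 of 14005 tested probe sets (24.6%) passed an adjusted p of 0.05 in limma, and 1 or 0 did in each genotype comparison of 2 arrays with 2. Of 48 marker symbols searched, 3 had a named probe set, all for the shoot apex: the leaf primordium gene YAB3 (8.40 to 8.89) and the adaxial gene PHV (7.78 to 8.25) were well above the floor, and the stem cell gene CLV3 stood at the floor of 2.12 on all 8 arrays. No root, flower or seed marker had a named probe set, so those tissues were not checked. GIF1 and GRF3 themselves had no named probe set. The 1 probe set that passed in 35S:GIF1 and in the combined line, each against Col-0, has no gene listed, and its mean was 15.06 in 35S:GIF1 and 13.58 in the combined line against 9.18 in Col-0 and 8.86 in rGRF3. The array's 25S rRNA control reached 10.9 on the combined line's A array and lay between 6.22 and 8.23 on the other 7, and its part in the results was not tested.

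EXPA8 had its lowest signal in Col-0 and its highest in the combined line, within each letter. On the A arrays its log2 signal was 7.94 (Col-0), 8.38 (35S:GIF1), 8.66 (rGRF3) and 8.85 (combined line). On the B arrays it was 5.85, 7.52, 7.42 and 8.04 in the same order. Every B array was lower than the A array of its genotype, and the Col-0 B array was far below the other 7. In this tissue, as in any bulk sample, fewer cells of a type and less RNA per cell cannot be told apart.

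The EXPA8 means (± SD, n = 2 each) were 6.89 ± 1.48 for Col-0, 7.95 ± 0.61 for 35S:GIF1, 8.04 ± 0.87 for rGRF3 and 8.45 ± 0.57 for the combined line. The log2 difference of the combined line from Col-0 was 1.55, a 2.94-fold higher signal. Its standard error was 0.78, or 0.31 with the letter in the fit. The signal was 1.89-fold higher in letter A and 4.57-fold in letter B. Both arrays of the combined line were above both Col-0 arrays, whereas the arrays of each single line overlapped with those of Col-0. The single lines were 2.08-fold (35S:GIF1) and 2.22-fold (rGRF3) above Col-0, and they lay close to each other, with means 0.09 apart on the log2 scale. These sizes rest on the Col-0 arrays. Without Col-0 replicate B the log2 differences from Col-0 were 0.01 for 35S:GIF1, 0.10 for rGRF3 and 0.51 for the combined line. Without Col-0 replicate A they were 2.10, 2.19 and 2.60.

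TBL38 showed the same order of genotype means with a much smaller spread. TBL38 belongs to a family of wall polysaccharide acetyltransferases, and it has itself been described in the seed coat as an acetylesterase of homogalacturonan, the main pectin. Its log2 signal on the A arrays was 7.11 (Col-0), 7.30 (35S:GIF1), 7.37 (rGRF3) and 7.81 (combined line). On the B arrays it was 6.53, 7.14, 7.27 and 7.77. All 6 arrays of the transgenic lines were above both Col-0 arrays, and both arrays of the combined line were above the other 6.

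The TBL38 means (± SD, n = 2 each) were 6.82 ± 0.41 for Col-0, 7.22 ± 0.11 for 35S:GIF1, 7.32 ± 0.08 for rGRF3 and 7.79 ± 0.03 for the combined line. The log2 difference from Col-0 was 0.40 for 35S:GIF1, 0.50 for rGRF3 and 0.97 for the combined line. The standard error was 0.21 each, or 0.16 with the letter in the fit. Without Col-0 replicate B these differences were 0.11, 0.21 and 0.68, and without Col-0 replicate A they were 0.69, 0.79 and 1.27. Over both arrays the combined line had a 1.96-fold higher signal, 1.63-fold in letter A and 2.37-fold in letter B. The step from rGRF3 to the combined line was 0.44 on the log2 scale in letter A and 0.51 in letter B, and the step from 35S:GIF1 to the combined line was 0.51 and 0.63. The departure from additivity, the combined line minus both single lines plus Col-0, was 0.07 (standard error 0.30), with 0.24 in letter A and -0.11 in letter B. Of the neighbours in the order of levels, 35S:GIF1 and rGRF3 overlapped and the others did not.

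**Figure D1:**
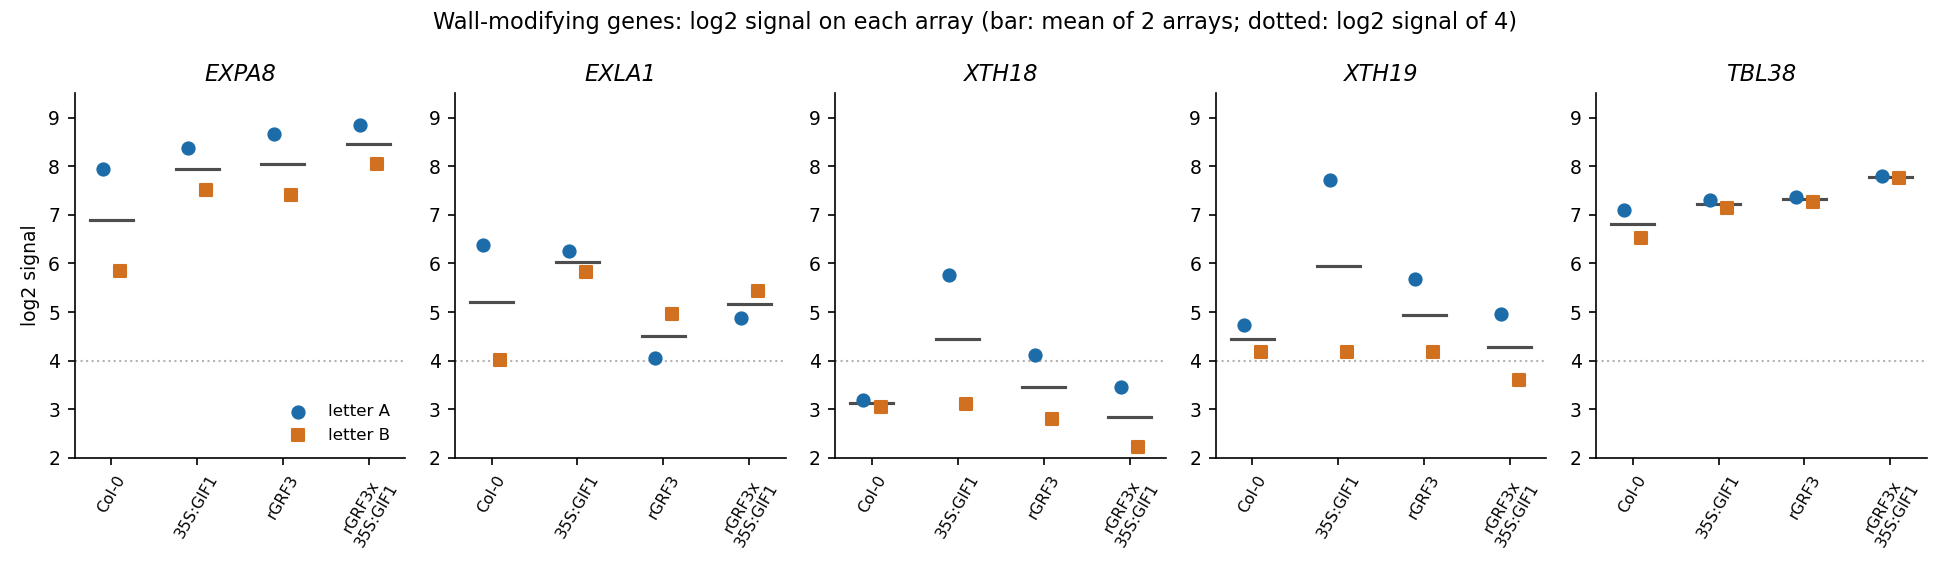
Log2 signal (vertical axis) of the 5 genes on each of the 8 arrays by genotype, with letter A as blue circles, letter B as orange squares, a bar for the mean of 2 arrays and a dotted line at a log2 signal of 4. TBL38 steps up from 6.82 in Col-0 to 7.79 in the combined line with its letters farthest apart in Col-0 (7.11 and 6.53), while XTH18 and XTH19 are high on the A array of 35S:GIF1 (5.76 and 7.71).

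XTH18 and XTH19, which are neighbouring genes on one chromosome with no annotated gene between them in the TAIR10.1 gene table, were highest on 1 array, the A array of 35S:GIF1. XTH19 had log2 signals on the A arrays of 4.74 (Col-0), 7.71 (35S:GIF1), 5.69 (rGRF3) and 4.97 (combined line). On the B arrays it stood at 4.17 in each genotype but the combined line, where it was 3.61. XTH18 had log2 signals on the A arrays of 3.19, 5.76, 4.11 and 3.45 in the same genotype order, and of 3.05, 3.11, 2.80 and 2.23 on the B arrays. Both genes are best known from roots in Arabidopsis.

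The log2 difference between 35S:GIF1 and Col-0 was 1.49 for XTH19 (standard error 1.19, or 0.64 with the letter in the fit). It was 2.98 in letter A and 0.00 in letter B. For XTH18 the difference was 1.31 (standard error 0.92, or 0.52 with the letter in the fit). It was 2.57 in letter A and 0.06 in letter B. The size of these differences is thus that of 1 array: without 35S:GIF1 replicate A the XTH19 difference was -0.28. The combined line minus 35S:GIF1 was -2.74 for XTH19 on the log2 scale in letter A and -0.56 in letter B. Against Col-0 the combined line differed in XTH19 by 0.24 in letter A and -0.55 in letter B, so the letters disagreed in sign. XTH18 did the same, at 0.26 and -0.82. In both genes every pair of neighbours in the order of genotype means overlapped.

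XTH18 reached a log2 signal of 4 on 2 of 8 arrays, the A arrays of 35S:GIF1 and rGRF3, and so passed the filter on low values only through arrays where it was high. Its other 6 values lay between the floor and 4, where sizes are not exact. XTH19 was at or above 4 on 7 of 8 arrays. The B arrays of Col-0, 35S:GIF1 and rGRF3 shared a value of 4.17. Whether this is a background level of the XTH19 probe set was not tested. The related genes XTH20 and XTH21 both stood at the floor of 2.12 on all 8 arrays. Probes of close paralogs can bind each other's transcripts, and whether the XTH18 and XTH19 probe sets do so was not tested.

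The difference of EXLA1 from Col-0 had opposite signs in letters A and B in all 3 lines. In 35S:GIF1 the letter A difference was small, at -0.12 on the log2 scale against 1.81 in letter B. All 3 lines were set against the same 2 Col-0 arrays, so these are not separate observations. The Col-0 B array minus the Col-0 A array was -2.37. Expansin-like A proteins resemble expansins in sequence, and wall loosening by them has not been established. The log2 signal of EXLA1 on the A arrays was 6.38 (Col-0), 6.26 (35S:GIF1), 4.05 (rGRF3) and 4.87 (combined line). On the B arrays it was 4.01, 5.82, 4.96 and 5.44. Within letter A the 2 lines with rGRF3 were the lowest, and within letter B Col-0 was.

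The log2 difference of EXLA1 between rGRF3 and Col-0 was -2.33 in letter A and 0.95 in letter B, with -0.69 over both (standard error 0.76). For the combined line it was -1.51 and 1.43, with -0.04 over both. The comparison of the combined line with 35S:GIF1 had the same sign in both letters, at -1.39 and -0.38, as did that with rGRF3, at 0.82 and 0.48. All neighbouring genotypes overlapped in the order rGRF3, combined line, Col-0, 35S:GIF1. The nearby relative EXLA3 stood between 2.12 and 2.16 on all arrays. EXLA2 lay between 6.04 and 7.09, with log2 differences from Col-0 of 0.39 (35S:GIF1), -0.04 (rGRF3) and 0.24 (combined line).

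**Figure D2:**
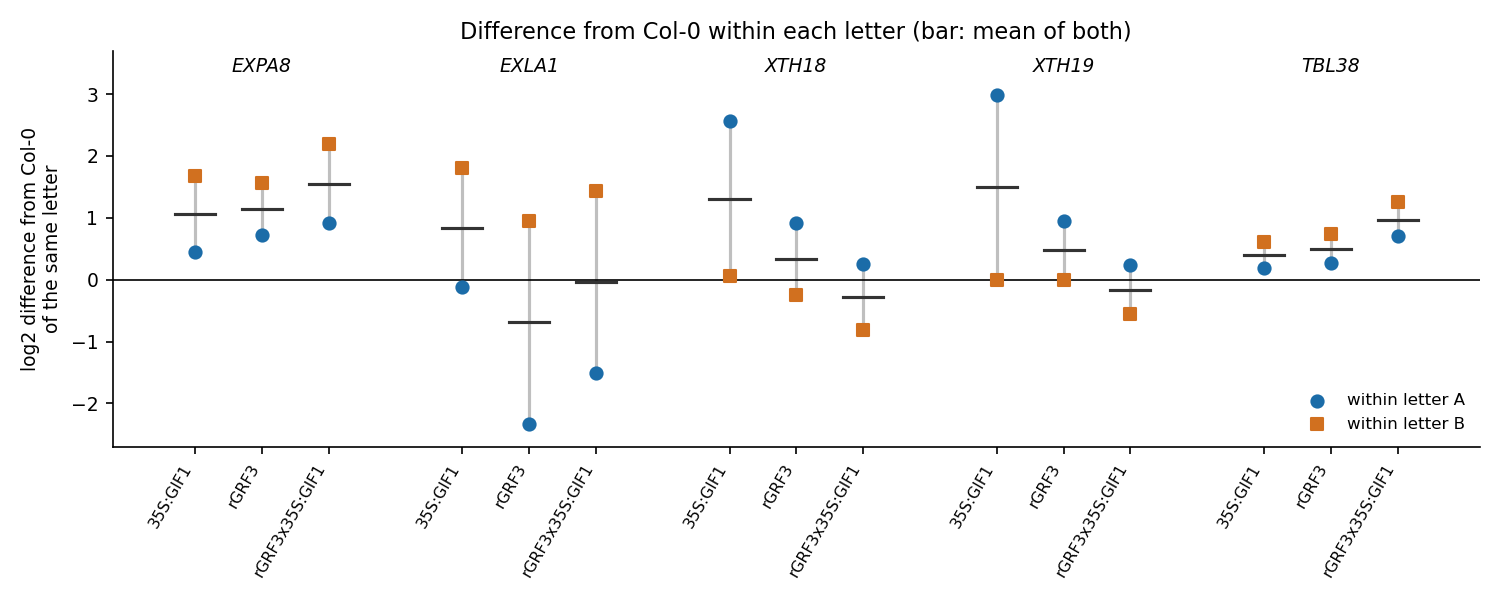
Log2 difference of each transgenic line from the Col-0 array of the same letter (vertical axis) for the 5 genes, within letter A (blue circles) and letter B (orange squares), with a bar for the mean of both. EXPA8 and TBL38 are above 0 in all 6 comparisons each, up to 2.19 and 1.25 in the combined line, while EXLA1 spans 0 in all 3 lines.

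In limma's fit over 14005 probe sets, 0 of the 5 genes passed an adjusted p of 0.05 in any of the 3 comparisons with Col-0, where 0.00714% (35S:GIF1), 0.0% (rGRF3) and 0.00714% (combined line) of all probe sets did. None passed against rGRF3 (0.00714% of all) or against 35S:GIF1 (0.0%), and none for the interaction (0.0%). The lowest adjusted p was that of TBL38 in the combined line against Col-0, at 0.627, or 0.113 with the letter as a replicate block (where 0.0357% of all probe sets passed), and the block changed the call of none of the 5. At an unadjusted p under 0.05 in limma, TBL38 was counted in the combined line against Col-0, with 902 of all probe sets (6.44%), and against 35S:GIF1, with 354 (2.53%). The other 4 genes were counted in no genotype comparison of this fit, which left the letter out. Unadjusted counts are not given for the fit with the letter. There EXPA8 in the combined line against Col-0 had an adjusted p of 0.144 in limma, near that of TBL38. Since the Col-0 arrays are shared by all 3 comparisons with Col-0, and their values carry 9 decimals where the other 6 arrays carry 3, a difference in how they were processed cannot be told apart from genotype.

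EXPA8 and TBL38 were the 2 of 5 genes with all 3 transgenic lines above Col-0 within both letters, a pattern that 9.78% of the tested probe sets showed. They were also the 2 with Col-0 lowest and the combined line highest in both letters, as in 2.96% of all. Both had the combined line's arrays above both Col-0 arrays, as did 15.8% of all. TBL38 also had both arrays of 35S:GIF1 above both Col-0 arrays (9.23% of all) and both of rGRF3 (11.5%). It also had both arrays of the combined line above both of rGRF3 (12.1%) and both of 35S:GIF1 (14.1%). These genes were chosen on the same values, so nothing is read from the counts.

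The 2 genes also followed each other across arrays. After the mean of each letter was subtracted, EXPA8 and TBL38 had a Pearson r of 0.94 over 8 arrays. It was 0.89 over the 6 left without the Col-0 arrays, which lie farthest out in EXPA8. XTH18 and XTH19 had an r of 0.99, and 0.94 without the A arrays of 35S:GIF1 and Col-0. EXLA1 had an r between 0.13 and 0.21 with each of the other 4. With EXPA8 it was -0.02 without the Col-0 arrays. Without the A array of rGRF3 and the B array of Col-0, farthest out in EXLA1, it ran from -0.67 (TBL38) to 0.34 (XTH18). These values describe 8 arrays that share their genotypes, letters and normalisation.

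**Figure D3:**
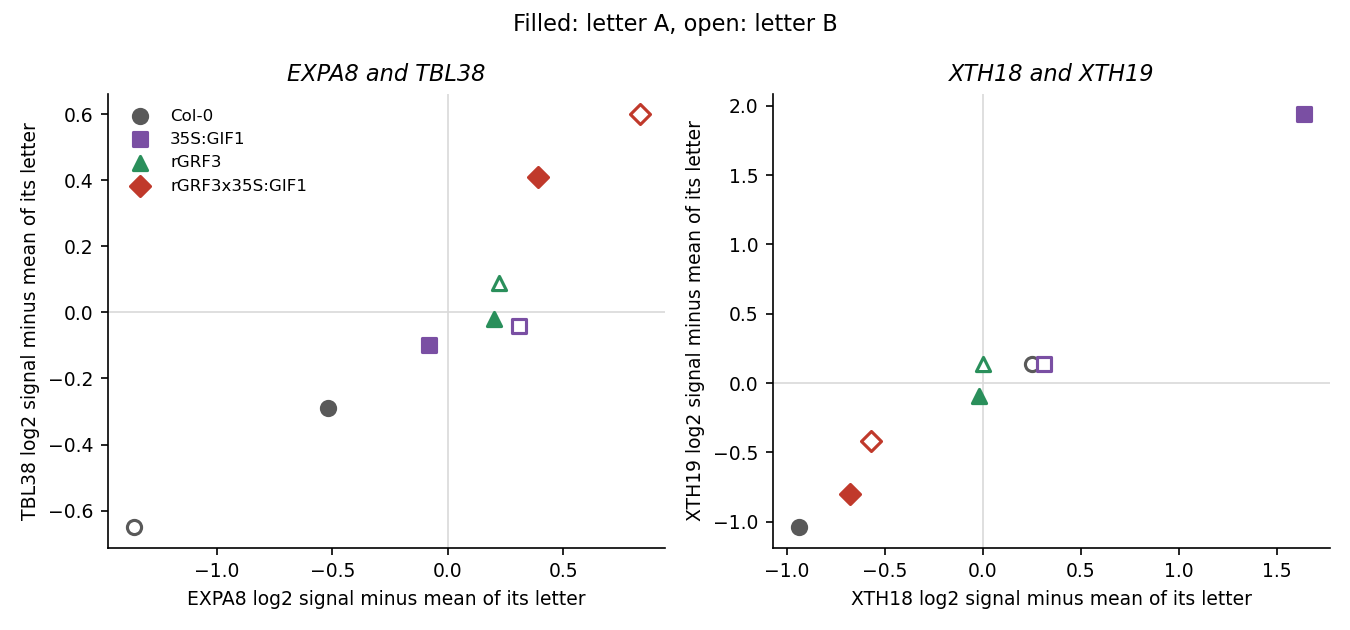
Log2 signal minus the mean of the array's letter for EXPA8 against TBL38 (left) and XTH18 against XTH19 (right), by genotype, filled for letter A and open for letter B. The Col-0 points lie at the low end and the combined line at the high end on the left (r = 0.94), and on the right the A array of 35S:GIF1 stands alone at the upper end (r = 0.99).

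The genes most alike in pattern were looked up among the 7598 other tested single-gene probe sets by the same letter-centred r. For EXPA8 they were AT4G17790, AT1G23890 and AT1G48330 (r = 0.99 each), and 151 genes reached an r of 0.9. AT4G17790 had means of 7.75 (Col-0), 8.16 (35S:GIF1), 8.14 (rGRF3) and 8.30 (combined line). For TBL38 they were AT3G59570, AT2G42320 and AT2G38000 (r = 0.98 each), and 170 genes reached 0.9. AT3G59570 had means of 5.69 (Col-0), 6.18 (35S:GIF1), 6.27 (rGRF3) and 6.66 (combined line).

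XTH18 and XTH19 were each other's nearest match, and ZCF37 was among the next for both (r = 0.94 and 0.97), with means of 3.82 in Col-0 and 4.32 in 35S:GIF1. The others were AT5G67220 for XTH18 (0.96) and AT5G66960 for XTH19 (0.96). In all, 10 genes reached an r of 0.9 with XTH18 and 12 with XTH19, against 25 with EXLA1. For EXLA1 the nearest were AT5G17280 (0.98), AT2G44760 (0.97) and AT1G54500 (0.96). Their means moved far less than those of EXLA1, such as from 7.52 in rGRF3 to 7.79 in 35S:GIF1 for AT5G17280.

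Between the letters, 4 of the 5 genes were lower on the B array than on the A array in all 4 genotypes (25.3% of tested probe sets were), and EXLA1 was the exception. For XTH19 the B array minus the A array was -0.57 (Col-0), -3.55 (35S:GIF1), -1.52 (rGRF3) and -1.36 (combined line) on the log2 scale. For XTH18 it was -0.14, -2.65, -1.30 and -1.21 in the same order, and for EXPA8 it was -2.09, -0.87, -1.24 and -0.81. The EXPA8 letter difference was thus widest in Col-0, while those of XTH18 and XTH19 were widest in 35S:GIF1. TBL38 ran from -0.58 in Col-0 to -0.04 in the combined line. EXLA1 was below 0 in Col-0 (-2.37) and 35S:GIF1 (-0.44), and above 0 in rGRF3 (0.91) and the combined line (0.57).

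In the fit with genotype, 3 of the 5 genes passed as lower on the B arrays, where 12.7% of tested probe sets did: EXPA8 (2.38-fold), XTH19 (3.36-fold) and XTH18 (2.51-fold). The genes were picked with their letter values in view, so nothing is read from this count. XTH18 also entered the test only through 2 A arrays, which favours a call as lower on B, so its call is not a result. Without a filter on low values all 3 calls ended (adjusted p of 0.111, 0.216 and 0.238 in limma). Leaving out either array of a genotype takes that genotype out of the letter comparison, so the 8 fits amount to 4 checks. The call of EXPA8 held in all of them, though only just under the threshold without an array of 35S:GIF1 or of rGRF3. That of XTH19 ended without either array of rGRF3 or of the combined line (adjusted p from 0.0916 to 0.0953 in limma), and that of XTH18 without any 1 of 4 transgenic arrays (0.0994 to 0.122), while without the A array of 35S:GIF1 or of rGRF3 XTH18 was too low to be tested. Of the sum of squared deviations over the 8 arrays, genotype made up 83.6% for TBL38, 41.9% for EXPA8, 40.5% for EXLA1, 36.3% for XTH18 and 27.9% for XTH19. The letter made up 8.53%, 49.8%, 3.75%, 43.9% and 51.7% in the same order of genes. Genotype holds 3 of the 7 degrees of freedom (42.9%) and the letter 1 (14.3%). The genotype share of every gene but TBL38 was below 42.9%, but a large letter share lowers it. What neither made up, with as many degrees of freedom as genotype, was 7.87%, 8.29%, 55.7%, 19.8% and 20.3% in the same order. Only for EXLA1 was this rest larger than the genotype share.

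**Figure D4:**
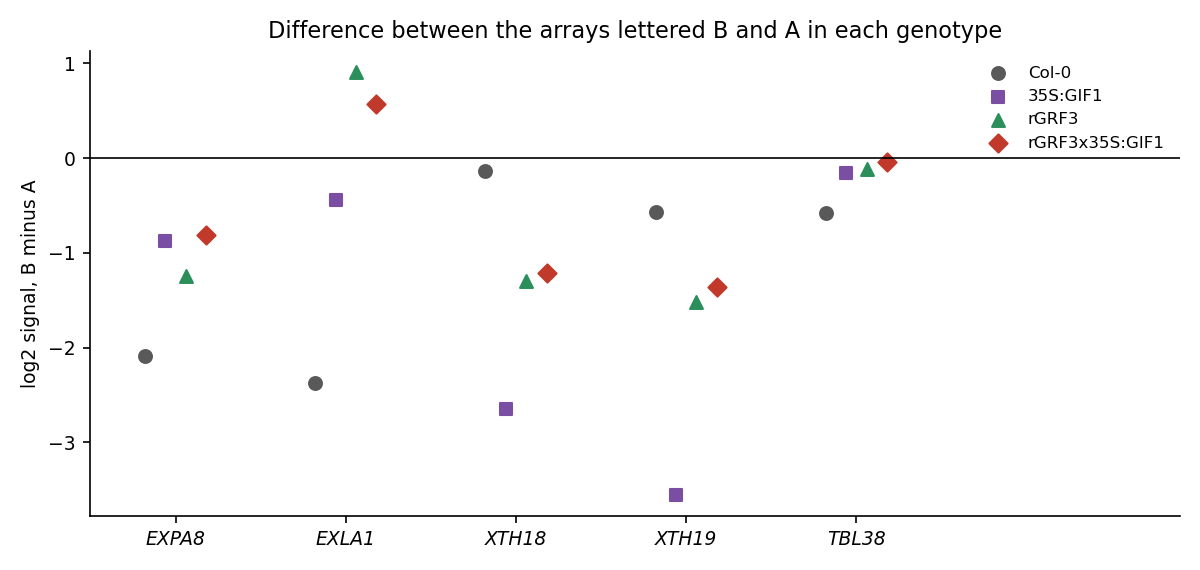
Log2 signal on the B array minus that on the A array (vertical axis) in each of the 4 genotypes for the 5 genes. EXPA8, XTH18, XTH19 and TBL38 are below 0 in all 4 genotypes, down to -3.55 for XTH19 in 35S:GIF1, and EXLA1 runs from -2.37 to 0.91.

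The other wall genes were taken from 8 lists defined by gene symbol, which held 87 named probe sets. The symbol patterns fit 382 genes of the gene table, summed over the lists, and 8730 probe sets besides controls had no gene listed. The lists therefore cover only part of each family. Of the 87 named probe sets, 49 were tested, 44 of them besides the 5 genes above. None of the 44 passed in any genotype comparison, and 29 were higher in the combined line than in Col-0, against 48.5% of all tested probe sets. These counts of higher genes take any difference above 0 before rounding, and so include TBL28, whose difference rounds to 0.00. All 3 lines were above Col-0 within both letters in 3 of the 44: ATPMEPCRB, TBL18 and TBL39, against 9.78% of all probe sets.

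ATPMEPCRB, which encodes a pectin methylesterase, had the widest difference of these genes from Col-0. Its log2 signal was 6.61 and 6.92 on the A and B arrays of Col-0, 9.33 and 7.70 in 35S:GIF1, 9.28 and 7.87 in rGRF3, and 8.79 and 8.30 in the combined line. All 6 transgenic arrays were above both Col-0 arrays, and the 3 lines overlapped one another. The log2 differences from Col-0 were 1.75 (35S:GIF1), 1.81 (rGRF3) and 1.78 (combined line). The other tested genes of the pectin list, PMEPCRF, PME61 and the galacturonosyltransferase gene GAUT15, differed between the combined line and Col-0 by 0.17, 0.19 and -0.07. The pectin list had 4 of its 7 probe sets tested and a median of 0.18 in that comparison, beside a median of -0.01 over all tested probe sets.

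Among expansins, 11 of 19 named probe sets were tested, EXPA8 and EXLA1 included. In the combined line 6 of 11 were higher than in Col-0 (median log2 difference 0.24) and in 35S:GIF1 6 of 11 (median 0.11). In rGRF3 2 of 11 were higher (median -0.20, against -0.02 over all probe sets). Of all tested probe sets, 48.5% (combined line), 47.9% (35S:GIF1) and 45.7% (rGRF3) were higher than in Col-0. The 2 expansin genes that were higher in rGRF3 were EXPA8 and EXPB3 (0.11). Against rGRF3 the combined line was higher in 10 of 11 (median 0.40), against 52.9% of all probe sets (median 0.01). Next to EXPA8 the largest differences of the combined line from Col-0 were those of EXPA9 (-0.50), EXLB1 (0.46) and EXPA20 (0.44). EXPA9 had a mean of 3.76 in the combined line, so its size is not exact. EXPA4, EXPA15 and EXPA16 differed by -0.05, -0.33 and 0.33. EXPA7 and EXPA18, known as root hair expansins, stood near the floor, at no more than 2.19 and 2.12 on any array.

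Of the XTH list, 5 of 10 probe sets were tested, and besides XTH18 and XTH19 these were XTH16, XTH32 and EXGT-A3. Their log2 differences between the combined line and Col-0 were 0.01, -0.38 and 0.13. In 35S:GIF1, where XTH18 and XTH19 were high on the A array, these 3 differed from Col-0 by 0.06, -0.07 and 0.05. XTH16 and XTH32 rose on the B arrays (log2 differences of 0.97 and 0.70, adjusted p = 0.00506 and 0.0191 in limma). XTH18 and XTH19 were lower there, but they were picked with their letter values in view, so nothing is read from the contrast.

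Of the TBL list, 15 of 24 probe sets were tested, TBL38 included. In the combined line 12 of 15 were higher than in Col-0 (median 0.17), in rGRF3 11 (median 0.06) and in 35S:GIF1 10 (median 0.05). Over all tested probe sets the shares were 48.5%, 45.7% and 47.9% in that order, with medians of -0.01, -0.02 and -0.01. The largest differences of the combined line from Col-0 besides TBL38 were those of AT2G31110, also named TBL40, at 0.87, and of TBL26 at -0.85. AT2G31110 had 6.07 and 4.27 on the A and B arrays of Col-0 and 6.49 and 5.58 in the combined line, so the groups overlapped. A second probe set of AT2G31110 was too low to be tested. TBL26 had 4.02 and 7.02 in Col-0 and 3.84 and 5.50 in the combined line, a spread between letters wider than the difference between genotypes. TBL36, TBL37 and TBL39, near TBL38 in the numbering, differed by -0.52, 0.02 and 0.31.

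The list of cellulose and hemicellulose synthesis genes had 10 named probe sets, where its pattern fits 67 genes of the gene table. No cellulose synthase (CESA) gene was among the 10. Of these probe sets 7 were tested, with 3 of them higher in the combined line than in Col-0 (48.5% of all were). Their median there was -0.01. All 7 were higher on the B arrays, where 48.4% of all probe sets were (median 0.24, against -0.01 over all). None of the 7 passed. The largest differences of the combined line from Col-0 were 0.28 for the mannan synthase-like gene CSLA03 and -0.19 for the xyloglucan glucan synthase-like gene CSLC6. GH9 endoglucanase genes had 6 of 15 tested. Of these 4 were higher in the combined line than in Col-0 (48.5% of all), with a median of 0.11 (-0.01 over all). Their largest differences were those of GH9B13 (-0.40) and GH9B5 (0.22). The secondary wall list had 1 of 3 tested, GUT2, also named IRX10, at 0.15. The list of arabinogalactan and extensin proteins had no named probe set.

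Between letters, 10 of the 44 other wall genes rose on the B arrays, where 11.8% of all probe sets did, and 2 fell, where 12.7% did. GH9B8 rose in limma by 1.84 (log2 difference, adjusted p = 0.00118), TBL26 by 1.94 (0.0103) and EXPB3 by 1.06 (0.0116). EXPA15, TBL39, TBL41, GH9B5 and GH9C2 also rose, by 0.34 to 0.90. The 2 that fell were EXPA20 (-0.74, adjusted p = 0.0282 in limma) and AT2G31110 (-0.97, adjusted p = 0.0297).

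**Figure D5:**
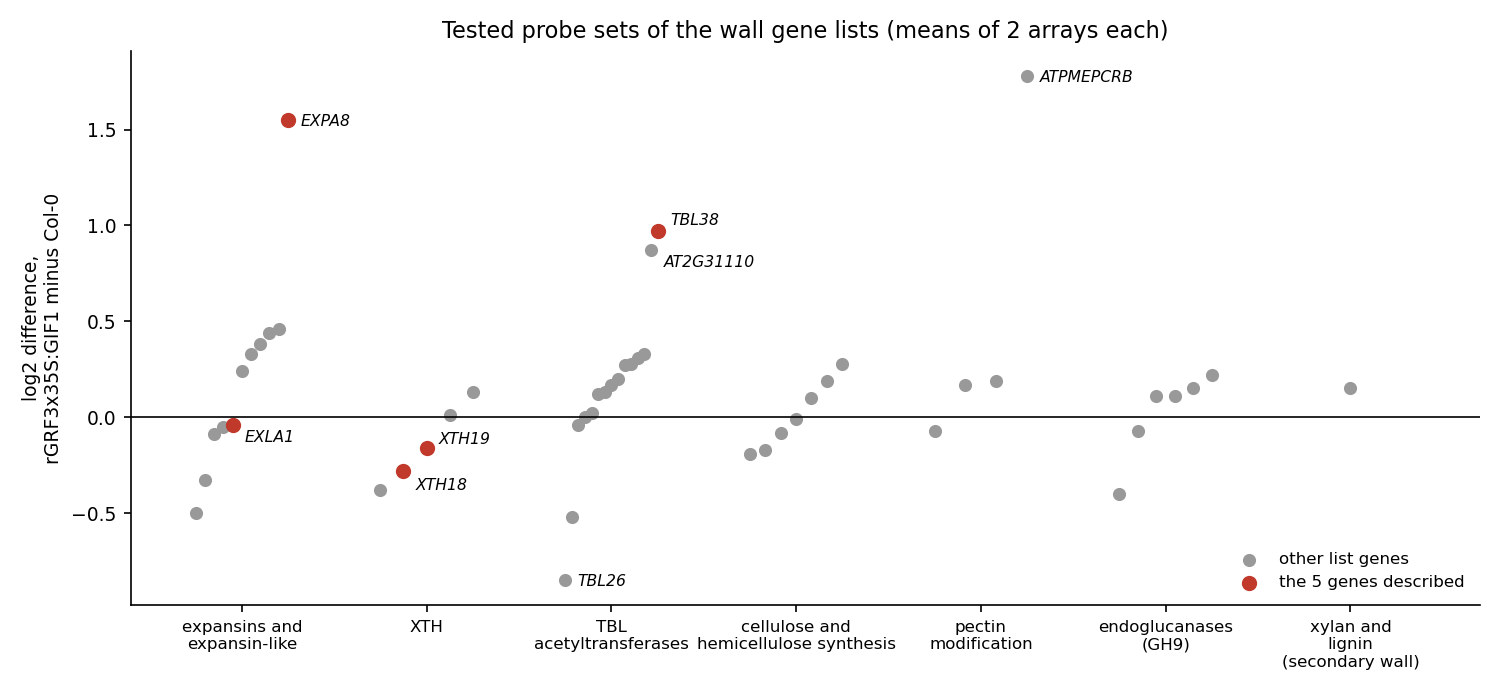
Log2 difference between the combined line and Col-0 (vertical axis, means of 2 arrays each) for every tested probe set of 7 wall gene lists, with EXPA8, EXLA1, XTH18, XTH19 and TBL38 in red and the other genes in grey. ATPMEPCRB (1.78), EXPA8 (1.55), TBL38 (0.97) and AT2G31110 (0.87) lie above the rest, TBL26 (-0.85) lies lowest, and all others are between -0.52 and 0.46.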

How the data were processed

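The authors deposited one value table of log2 signals for 8 ATH1 arrays. GCRMA and limma are the tools listed, per the submitters' processing notes; versions, settings, scan dates and a genome build are not given in the sources used here. GCRMA subtracts estimated background and normalises between arrays, so low values collect at a floor and small signals are compressed. Gene names came from the platform annotation, updated by Entrez identifier to the TAIR10.1 gene table. The 5 genes and the wall gene lists were chosen with earlier results of these data known. The 8 lists were set by symbol pattern. PEX4, a peroxin gene that matched the pattern for extensins by its symbol, was left out.

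Of 22810 probe sets, 64 controls were left out, and the 14005 with a log2 signal of at least 4 on at least 2 arrays were tested. Means of the 4 genotypes were fitted with limma 3.58.1 in R 4.3.3 (lmFit, contrasts.fit, eBayes), with Benjamini-Hochberg adjustment over all tested probe sets and calls at 0.05, and the letters were compared in a fit with genotype. The number of arrays limits the precision. The deviations of A from B correlated between 0.59 and 0.75 in all 6 pairs of genotypes. Differences were therefore also given within each letter, and the letter was fitted as a block. This pairing is a reading of the data that no label states. The fit without the letter was kept as planned, and genotype standard errors and unadjusted p counts come from it unless stated. Besides the 5 genes, named genes were the list genes that passed or had the 2 largest differences between the combined line and Col-0, close relatives of the 5, and the 3 most alike in pattern. PMEPCRF, GAUT15 and TBL18 were named after their values were seen. Alternatives were the letter as a block, no filter or a stricter one at 6, quantile normalisation again, a trended and robust variance, array weights and each array left out. Tables and plots used Python 3.11.15, pandas 2.3.3, numpy 2.4.6 and matplotlib 3.10.9.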

Additional observations from a re-analysis of the deposited data

Results flagged for a closer look

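XTH18 is listed for a closer look because its mean difference with 35S:GIF1 had opposite signs with and without rGRF3. The size of that without rGRF3 rests on the A array of 35S:GIF1. XTH18 passed the filter only through that array and the A array of rGRF3. On the log2 scale 35S:GIF1 minus Col-0 came to 2.57 (A) and 0.06 (B, between signals of 3.11 and 3.05). The combined line minus rGRF3 came to -0.66 (A) and -0.57 (B), opposite in sign to the mean without rGRF3. The interaction, which tests this difference, did not pass (log2 difference -1.93, adjusted p = 1.0 in limma, 0.998 with the letter as a block), and 6 of the 8 XTH18 values lay under a log2 signal of 4.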

How the results depend on the processing

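The log2 differences of the 5 genes moved by less than 1 SD of the within-letter values in every setting other than leaving out an array. For the A or B arrays alone this holds by construction. The letter as a block, the filters and the trended and robust variance also leave each log2 difference unchanged by construction. Only quantile normalisation again and array weights remain as settings that could have moved one. Without 1 array the combined line minus Col-0 ran from 0.51 to 2.60 for EXPA8, from 0.68 to 1.27 for TBL38 and from -1.23 to 1.15 for EXLA1, and 0 of the 5 genes passed in any genotype comparison under any setting run, the replicate block included. The genes past the threshold between letters, 3 in all, were 0 without a filter, 1 with the stricter filter (which leaves XTH18 and XTH19 untested) and 1 to 3 without 1 array. Over all probe sets the count between letters, 3439, was 1069 without a filter and 1067 to 2649 without 1 array. Without a filter the counts against Col-0 were 0 (35S:GIF1), 1 (rGRF3) and 0 (combined line), and 3 and 2 in the combined line against rGRF3 and 35S:GIF1. In the combined line against Col-0 the count was 5 with the replicate block and 0 with array weights, against 1. When a trended, robust variance was joined to the block, a choice made after seeing the data, it was 61, and 13 in rGRF3 against Col-0. Without 1 array it was 0 to 1 in 35S:GIF1 against Col-0, 0 to 0 in the combined line against Col-0 and against rGRF3. The cause of these changes was not tested. With 2 arrays a group, a gene that did not pass is not shown to be unchanged.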
